A study of Mus musculus with 6 samples.

Results

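The miRNAs miR-21a, miR-146a, miR-146b and miR-155 were followed in the sensorimotor cortex of mice after spinal cord injury. They are 4 of 1174 miRNA hairpin genes of the GENCODE M21 annotation that carry a Mir symbol. The members were chosen by name, and their reads were chosen by sequence: a read of 18 to 26 nt counted when it lay in a hairpin on the sense strand with no mismatch. A read went to the 5p arm when its midpoint lay before that of the hairpin, and otherwise to the 3p arm.

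The SCI group held 3 adult (P90) male C57BL/6J mice whose whole cord was exposed from the dorsal side and cut through at C5/C6. The control group held 3 male C57BL/6J mice of the same age whose cord was exposed and left undamaged, so that both groups went through the surgery. The cortex of both groups was taken 7 days after surgery, and each sample was collected individually. The comparison asks which miRNAs differ in cortex, at a distance from the cut, when the cord has been transected.

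In mammalian cells, inflammatory receptors of the Toll-like and interleukin-1 families switch on the transcription factor NF-κB, and the genes of miR-146a and miR-155 are among its targets. miR-146a represses Irak1 and Traf6, adaptor proteins that carry the signal from those receptors to NF-κB, and so acts as a brake, whereas miR-155 is raised in activated macrophages and microglia and represses inhibitors of cytokine signalling such as Socs1. miR-21 is made in many cell types, is raised by STAT3 and NF-κB signalling, and is known from reactive astrocytes around spinal cord lesions. A miRNA hairpin is cut into a 5p and a 3p strand, of which 1 is usually kept, and bases 2 to 8 of the kept strand, the seed, pair with target mRNAs.

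The mature sequences below are those of RefSeq on GRCm38.p6, shown because every later result on strands, ends and tails refers to them. All 8 arms matched the RefSeq table. Each is written 5′ to 3′ in lower case with its seed in capitals.
miR-21a-5p: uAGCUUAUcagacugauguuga
miR-21a-3p: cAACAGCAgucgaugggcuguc
miR-146a-5p: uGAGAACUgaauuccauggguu
miR-146a-3p: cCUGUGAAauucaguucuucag
miR-146b-5p: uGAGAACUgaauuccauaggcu
miR-146b-3p: gCCCUAGGgacucaguucuggu
miR-155-5p: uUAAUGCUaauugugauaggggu
miR-155-3p: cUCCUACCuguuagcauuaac

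miR-146a-5p and miR-146b-5p have the same seed, GAGAACU, and 20 of their 22 bases are identical. They differ only at positions 18 and 21, counted from 1 at the 5′ end, which are the capitals in the next pair of sequences.
miR-146a-5p: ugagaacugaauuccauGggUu
miR-146b-5p: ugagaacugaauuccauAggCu
Reads that include the first of these positions can be assigned to 1 of the pair, and reads found in more than 1 arm were left out. The seed of miR-21a-5p, AGCUUAU, is shared with miR-21c in the RefSeq table, and the other seeds were found in no further mature sequence of that table.

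The 4 hairpins lie on 3 chromosomes of GRCm38. Mir21a (ENSMUSG00000065455.1) is at chr11:86584067-86584158 on the minus strand, inside the 3′ UTR of Vmp1, a gene on the same strand that encodes an autophagy membrane protein. Mir146, the symbol of miR-146a in this annotation (ENSMUSG00000065601.1), is at chr11:43374397-43374461 on the minus strand and overlaps no other annotated gene. Mir155 (ENSMUSG00000065397.1) is at chr16:84714140-84714204 on the plus strand, in an exon of its host lincRNA Mir155hg. Mir146b (ENSMUSG00000070127.2) is at chr19:46342762-46342870 on the plus strand, in an intron of Mfsd13a.

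The libraries held 14628518 to 23408028 reads in SCI and 10585062 to 24480988 in control, of which 72.9% to 78.9% were counted in miRNA arms. Of 1421 arms with reads, 690 were abundant enough to test. With edgeR's quasi-likelihood test, 0 of 690 arms passed at a Benjamini-Hochberg adjusted p under 0.05, which is 0% of the arms, and the smallest adjusted p was 0.116. At an unadjusted p under 0.05 there were 97 arms (14.1%), and DESeq2 passed 12 arms and limma-voom 0. The first principal component of all arms tested held 37.8% of the variance. On it, SCI 1, 2 and 3 lay at -4.88, -2.41 and -5.84, and control 1, 2 and 3 at 9.02, 2.87 and 1.24. The groups did not overlap there, and control 1 also stood apart from the other 5 libraries. Results that moved most when control 1 was left out are therefore also given without it.

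Among the 6 arms of the 4 hairpins that could be tested, none passed the test in edgeR, DESeq2 or limma-voom. The main strands miR-21a-5p, miR-146a-5p, miR-146b-5p and miR-155-5p each had groups whose libraries overlapped. The median log2 fold change of SCI over control was -0.023 over all 690 arms, with 330 arms higher and 360 lower in SCI. In this bulk tissue, fewer cells of a type and less miRNA per cell cannot be told apart. Levels are counts per 1000000 reads in miRNA arms (CPM), scaled by TMM. Means carry the SD of the 3 libraries of a group (n = 3), and log2 fold changes carry their standard error and edgeR's adjusted p.

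**Figure D1:**
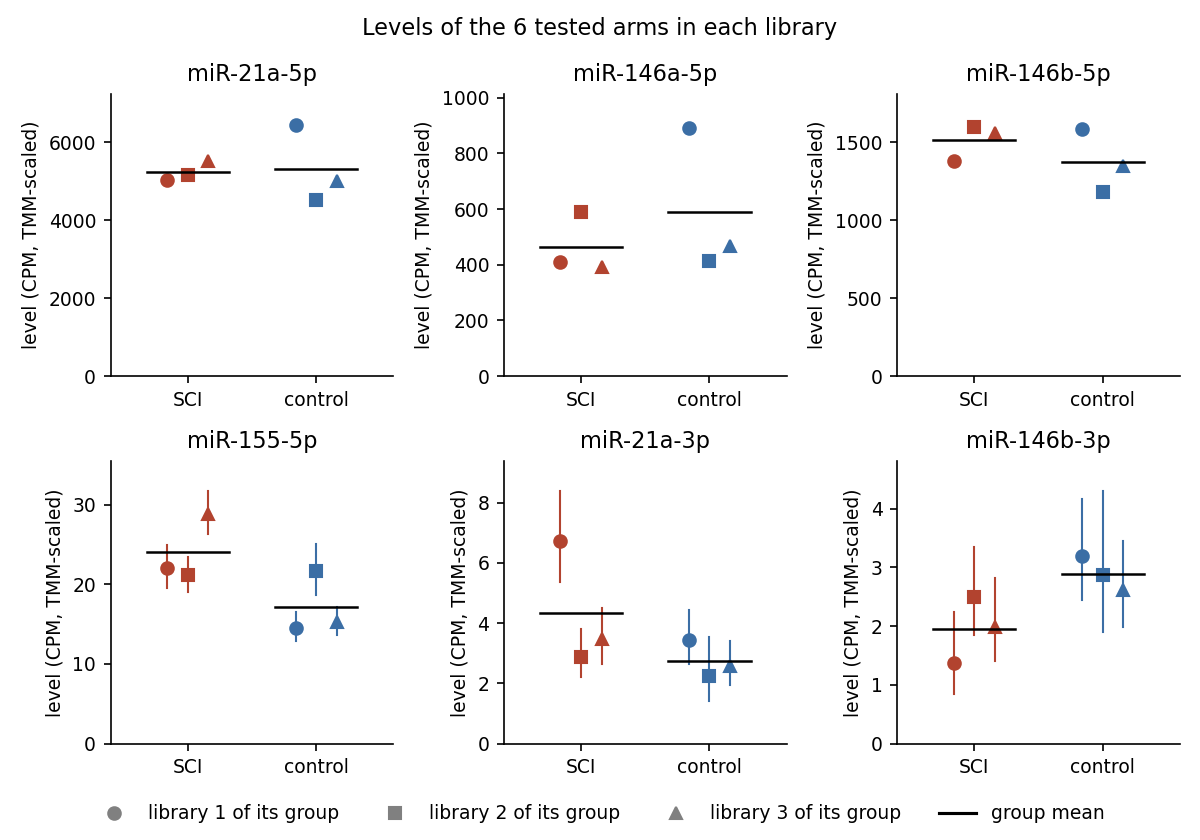
Level of each tested arm in each library (CPM, TMM-scaled, linear axis from 0), with 3 SCI libraries left of 3 control libraries. Points are libraries, horizontal lines are group means and vertical lines are 95% Wilson intervals, which are shorter than the points for the abundant arms. Control 1 is the highest point for miR-21a-5p and miR-146a-5p, and the groups separate only for miR-146b-3p, where the SCI points are lower.

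miR-21a-5p, the main strand of miR-21a, was the most abundant of the 8 arms and ranked 36 of the 690. Its level was 5027, 5151 and 5513 CPM in SCI 1, 2 and 3, against 6429, 4523 and 5008 CPM in control 1, 2 and 3. The SCI libraries lay within the range of the control libraries, with control 1 above and control 2 below all of them. The means were 5230 ± 253 CPM in SCI and 5320 ± 991 CPM in control, a log2 fold change of -0.025 ± 0.14 (adjusted p = 0.9495). The 95% interval ran from -0.35 to 0.30 on the log2 scale. Without control 1 the log2 fold change was 0.13, and it was above 0 under 5 other settings of scaling, filter or read choice as well.

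miR-146a-5p, the NF-κB feedback strand, had 410.4, 588.4 and 391.2 CPM in SCI, against 892.1, 411.9 and 467.5 CPM in control. Control 1 was far above the other 5 libraries, which all lay between 391.2 and 588.4 CPM. The means were 463 ± 109 CPM in SCI and 591 ± 263 CPM in control, and the log2 fold change was -0.35 ± 0.29 (95% interval -1.002 to 0.30, adjusted p = 0.616). Without control 1 it was 0.074, so the sign of the difference rested on that library.

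miR-146b-5p, which shares the miR-146a seed, was more abundant than miR-146a-5p in each of the 6 libraries. It had 1378, 1600 and 1562 CPM in SCI, against 1588, 1180 and 1349 CPM in control. The groups overlapped, with control 1 again the highest of its group. The means were 1513 ± 119 CPM in SCI and 1372 ± 205 CPM in control, with a log2 fold change of 0.14 ± 0.14 (95% interval -0.18 to 0.46, adjusted p = 0.678), or 0.26 without control 1.

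miR-155-5p, the strand raised in activated myeloid cells, was the least abundant of the 4 main strands and ranked 363 of 690. It had 256, 373 and 451 reads in SCI and 242, 174 and 291 reads in control. These counts are 22.0, 21.1 and 28.9 CPM in SCI, against 14.6, 21.7 and 15.2 CPM in control. SCI 3 was the highest, and control 2 lay between SCI 1 and SCI 2. The means were 24.0 ± 4.25 CPM in SCI and 17.2 ± 3.91 CPM in control. The log2 fold change was 0.49 ± 0.22 (95% interval 0.0023 to 0.99, unadjusted p = 0.0491), and with an adjusted p of 0.349 it did not pass. An unadjusted p under 0.05 with a higher level in SCI occurred in 8.12% of all arms tested. Without SCI 3 the log2 fold change was 0.35, and without control 1 it was 0.39.

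The minor strands, which are mostly degraded when the main strand is loaded, were far rarer. miR-21a-3p had 78, 51 and 54 reads in SCI and 57, 18 and 49 reads in control. Its mean level was 4.35 ± 2.06 CPM in SCI and 2.75 ± 0.614 CPM in control, with a log2 fold change of 0.62 ± 0.35 (adjusted p = 0.464). SCI 1 held the highest value, at 6.71 CPM, and without it the log2 fold change was 0.19. miR-146b-3p had 16, 44 and 31 reads in SCI and 53, 23 and 50 reads in control, or 1.38, 2.49 and 1.99 CPM in SCI against 3.19, 2.86 and 2.62 CPM in control. It was the only one of the 6 arms whose groups did not overlap, lower in SCI, a pattern found in 11.2% of all arms tested. Its log2 fold change of -0.54 ± 0.27 did not pass (adjusted p = 0.412). miR-146a-3p had 14 reads in all libraries together and miR-155-3p had 1, and neither was tested. For miR-155-3p, a count of 0 in control 1 allows a level of up to 0.180 CPM (3 counts), for counting error only.

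**Figure D2:**
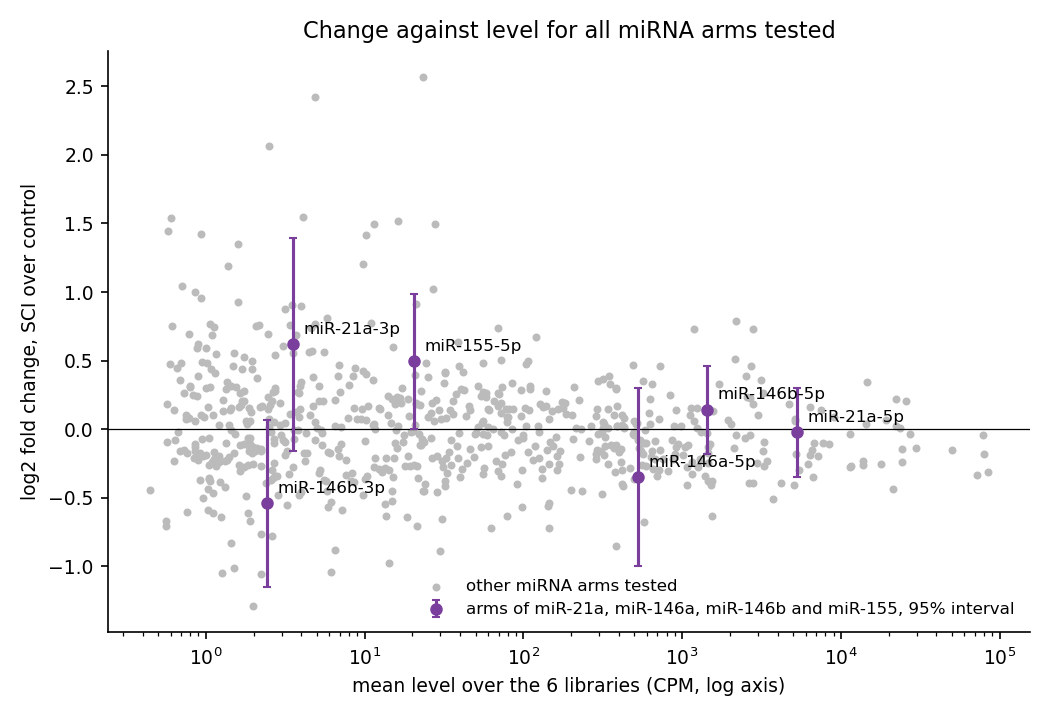
Log2 fold change of SCI over control against mean level over the 6 libraries (CPM, log axis) for the 690 miRNA arms tested, one grey point per arm. The 6 tested arms of miR-21a, miR-146a, miR-146b and miR-155 are purple, with 95% intervals. Only the interval of miR-155-5p lies above 0, from 0.0023 to 0.99.

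The 3p share of each hairpin describes how the strands divide, independently of the hairpin's level. The 3p arm made up 0.133%, 0.0560% and 0.0627% of miR-21a reads in SCI, against 0.0533%, 0.0495% and 0.0512% in control. All 3 SCI values lay above the control values, and SCI 1 was more than 2 times as high as any other library. With limma on log2 3p over 5p ratios, the difference was 0.59 ± 0.33 (adjusted p = 0.522), and 0.20 without SCI 1. A ratio with no overlap and higher in SCI occurred in 7.91% of the 278 hairpins tested.

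The 3p share of miR-146b ran the other way. It was 0.0998%, 0.155% and 0.127% in SCI, against 0.200%, 0.242% and 0.194% in control, so that every SCI library lay below every control library. The limma difference of the log2 ratio was -0.74 ± 0.22 (unadjusted p = 0.0111, adjusted p = 0.348), and it stayed between -0.89 and -0.59 when each library was left out in turn. A ratio with no overlap and lower in SCI was found in 11.5% of hairpins, 30 hairpins (10.8%) had an unadjusted p under 0.05, and 0 of 278 (0%) passed. The 3p reads behind these shares number 16 to 53 per library, and the Wilson interval of SCI 2, 0.116% to 0.209%, overlapped that of control 3, 0.147% to 0.255%.

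miR-146a-5p took 22.95%, 26.89% and 20.03% of the reads of the seed-sharing pair in SCI, against 35.98%, 25.87% and 25.73% in control. The difference of the means was -5.905 percentage points, or -2.51 without control 1, and the groups overlapped (two-sided exact permutation p = 0.3). For 3 libraries against 3 the smallest p this test can give is 0.1. The summed reads of the pair, which all carry the seed GAGAACU, amounted to 1789, 2188 and 1954 CPM in SCI, against 2480, 1592 and 1817 CPM in control (exact permutation p = 1). The difference of the means was 13.8 CPM with control 1 and 272.3 CPM without it. miR-155-5p amounted to 53.7, 35.9 and 73.8 reads per 1000 miR-146a-5p reads in SCI, against 16.3, 52.6 and 32.6 in control (exact permutation p = 0.2). The difference of the means was 20.6 with control 1 and 11.9 without it. A total of 8 such quantities were tested, and the smallest Benjamini-Hochberg adjusted value among them was 0.32.

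**Figure D3:**
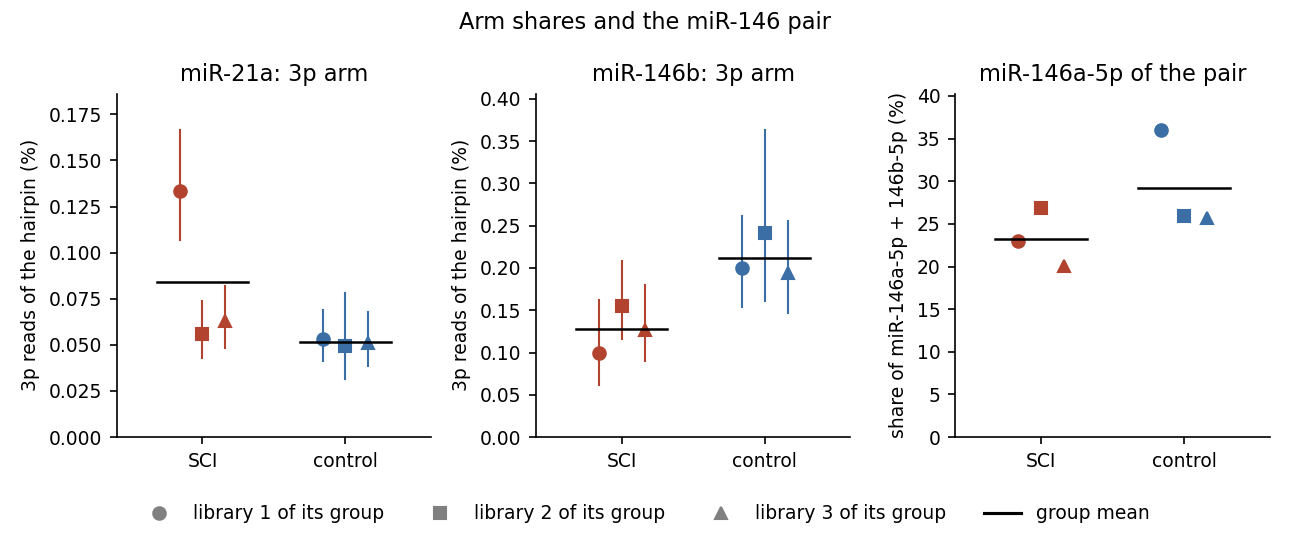
Share of 3p reads among the reads of the miR-21a and miR-146b hairpins, and share of miR-146a-5p in the sum of miR-146a-5p and miR-146b-5p, all in percent on axes from 0. Points are libraries, SCI left of control, with group means as horizontal lines and 95% Wilson intervals as vertical lines in the 3p panels. SCI 1 stands above all others for miR-21a, the groups separate for miR-146b, and control 1 is highest for miR-146a-5p.

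The most frequent read of miR-21a-5p, miR-146a-5p and miR-146b-5p was the 22 nt RefSeq mature sequence, whereas that of miR-155-5p was 21 nt, 2 bases shorter than its mature sequence of 23 nt. The reads below carry the deposited T for U, and the capitals mark the templated bases that follow the mature 3′ end in the hairpin.
miR-21a-5p: tagcttatcagactgatgttgaCTGT
miR-146a-5p: tgagaactgaattccatgggttATAT
miR-146b-5p: tgagaactgaattccataggctGTGA
miR-155-5p: ttaatgctaattgtgataggggtTTTG

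The 5′ end sets the seed, and it was precise for all 4 main strands. The most frequent start held 98.7% of miR-21a-5p reads, 98.1% of miR-146a-5p, 98.9% of miR-146b-5p and 97.0% of miR-155-5p, as means over the 6 libraries, against a median of 96.7% over 440 arms. For miR-21a-5p the share was 98.74%, 98.92% and 98.90% in SCI, against 98.42%, 98.49% and 98.59% in control. Every SCI library was above every control library, as in 30.2% of all arms tested. The limma difference of the log odds was 0.39 ± 0.10 on the log2 scale (unadjusted p = 0.0103, adjusted p = 0.0806), which did not pass. It passed with a minimum mean of 1000 reads (adjusted p = 0.0291), a setting under which 58 arms passed instead of 34 (7.73%). That setting tests fewer arms, so the counts come from different sets. The count of 34 fell when most single libraries were left out. Reads that lack the first base, and thus have a seed shifted by 1 base, made up 0.673%, 0.512% and 0.553% of miR-21a-5p in SCI, against 0.870%, 0.864% and 0.807% in control.

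miR-146b-5p was also higher without overlap at its main start, at 98.91%, 98.99% and 98.95% in SCI against 98.88%, 98.77% and 98.87% in control (log2 difference 0.15, limma adjusted p = 0.379). For miR-155-5p the shares were 96.88%, 98.93% and 98.004% in SCI, against 95.04%, 97.13% and 96.22% in control, and the groups overlapped. Its log2 difference of 1.004 ± 0.41 rested on 45 reads that start 1 base late in all libraries together (limma adjusted p = 0.202). miR-146a-5p showed a log2 difference of 0.039. Over the whole table, 133 of 440 arms were higher in SCI without overlap at their main start and 19 (4.32%) were lower, 152 arms (34.5%) in all, and 115 arms (26.1%) had an unadjusted p under 0.05.

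The 3′ ends were more varied. Among reads with the main start, the most frequent 3′ end held 58.3% of miR-146a-5p, 49.4% of miR-21a-5p, 36.2% of miR-146b-5p and 24.2% of miR-155-5p, as means over the 6 libraries. The median over 426 arms was 56.1%, and miR-155-5p ranked 424, near the lower end. No main strand of the 4 hairpins differed in this share past the limma threshold, and neither did any other arm, with 0 of 426 (0%) adjusted and 43 arms (10.1%) at an unadjusted p under 0.05. The log2 differences were -0.075 for miR-21a-5p, -0.31 for miR-146a-5p, -0.027 for miR-146b-5p and 0.35 for miR-155-5p. Without control 1 that of miR-21a-5p was 0.020.

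Within miR-21a-5p, the 23 nt form, which keeps the next templated base, and the rare 24 nt form were higher in SCI without overlap. The main forms of miR-21a-5p follow, with that base in capitals.
22 nt: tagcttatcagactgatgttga
21 nt: tagcttatcagactgatgttg
23 nt: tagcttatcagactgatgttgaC
The 23 nt end held 21.60%, 18.83% and 24.44% of reads with the main start in SCI, against 17.41%, 16.09% and 15.95% in control. No library of SCI overlapped with control, and the exact permutation p of 0.1 is the smallest that 3 against 3 allows (adjusted 0.32). This form was picked after its values were seen, and an end 1 base past the main one was higher in SCI without overlap in 6.34% of 426 arms. The 24 nt end held 1.57%, 1.57% and 1.88% in SCI, against 1.53%, 1.21% and 1.35% in control, and no share over all arms was counted for it. The 21 nt end held 23.8%, 25.4% and 21.9% in SCI, against 25.3%, 30.5% and 28.9% in control, where SCI 2 lay above control 1 (exact permutation p = 0.2). The mean 3′ end was 0.093 ± 0.048 nt further out in SCI, with groups that overlapped (limma adjusted p = 0.671).

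miR-146b-5p had 2 separate preferred ends, the 22 nt form and the 24 nt form, with fewer reads at the 23 nt form between them. The 24 nt form held 24.4%, 31.0% and 31.7% in SCI, against 28.6%, 30.6% and 28.2% in control. In miR-146a-5p the 24 nt form was 9.87%, 7.75% and 8.59% in SCI, against 10.9%, 9.68% and 10.1% in control, and its mean 3′ end was 0.081 ± 0.037 nt shorter in SCI without overlap (limma adjusted p = 0.657), or 0.050 nt shorter without control 1. A mean 3′ end that was shorter without overlap occurred in 11.0% of arms. miR-155-5p was spread almost evenly over 21, 22 and 23 nt when the 6 libraries were pooled, with 421, 384 and 414 reads. Single libraries could be less even, as in SCI 1 with 27.8%, 16.9% and 16.9% at these lengths.

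**Figure D4:**
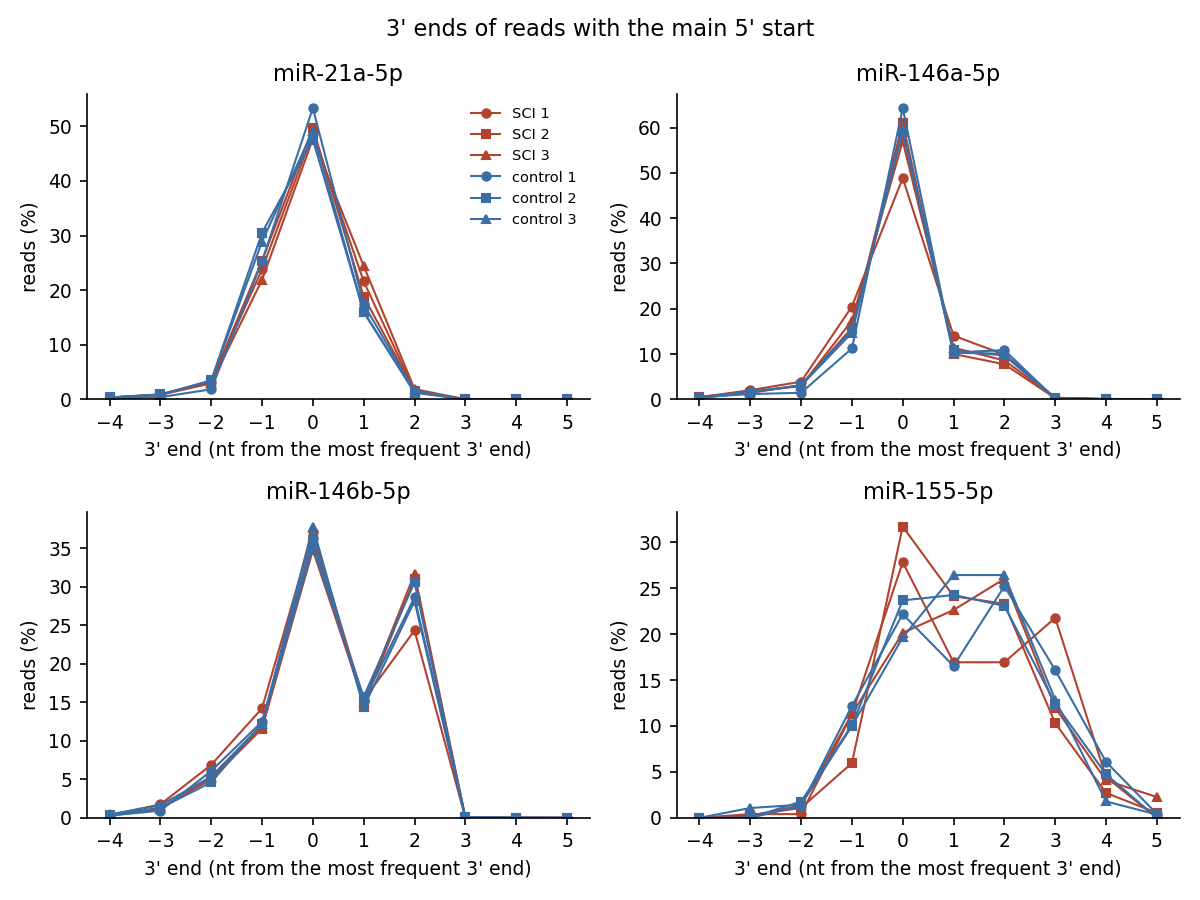
Share of reads (%) at each 3′ end among reads with the main 5′ start, against the distance in nt from the most frequent end, for the 4 main strands, with one line per library. Red lines are SCI and blue lines are control. The SCI lines lie above the control lines at 1 nt past the main end of miR-21a-5p, and the highest end of miR-155-5p differs between libraries.

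Bases that the hairpin does not encode are added to miRNA 3′ ends by terminal nucleotidyltransferases, and reads with unmatched 3′ bases were counted separately. A read counted as tailed when it matched no hairpin until its last 1 to 3 bases were removed. A misread last base or a leftover adapter base would count in the same way, and these were not told apart from added bases. The tailed share of an arm is given relative to its tailed and untailed reads together. miR-146a-5p was tailed far more than its paralogue, at 38.6% against 12.7% for miR-146b-5p as means over the 6 libraries. The median over 466 arms was 12.6%, with miR-155-5p at 20.9% and miR-21a-5p at 6.12%. The difference between miR-146a-5p and miR-146b-5p was 25.9 ± 2.22 percentage points and had the same sign in 6 of 6 libraries. The two-sided exact paired permutation p of 0.03125 is the smallest that 6 libraries allow. It was not adjusted, and this comparison was not among the planned tests. An added base that equals the next templated base cannot be told from a templated one, and these next bases differ between the paralogues.

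The most frequent tailed reads are shown because the added base of miR-146a-5p differs from that of the other 3 strands, and the added base is in capitals.
miR-21a-5p: tagcttatcagactgatgttgacA
miR-146a-5p: tgagaactgaattccatgggttT
miR-146b-5p: tgagaactgaattccataggcA
miR-155-5p: ttaatgctaattgtgatagggA
Among the tails counted, the added base was mostly U for miR-146a-5p, whereas A led in the other strands. The hairpin base after the mature 3′ end is A for miR-146a-5p and U for miR-155-5p. An added copy of that base at that end was not counted, which limits the comparison of tail bases between strands. Tails of U alone made up 21.1%, 22.0% and 21.6% of miR-146a-5p in SCI, against 30.5%, 23.8% and 21.1% in control. Control 1 was again apart, and the groups overlapped (exact permutation p = 0.3). The difference of the means was -3.55 percentage points with control 1 and -0.873 without it. All tails together made up 40.0%, 37.0% and 38.6% of miR-146a-5p in SCI, against 41.9%, 38.1% and 36.0% in control, with a log2 difference of -0.0089 (limma adjusted p = 0.977), or 0.088 without control 1.

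The tailed share of miR-21a-5p was higher in every SCI library than in every control library. It was 8.10%, 5.80% and 7.56% in SCI, against 4.92%, 5.24% and 5.12% in control. The log2 difference of 0.51 ± 0.16 had an unadjusted limma p of 0.0139 and an adjusted p of 0.495, and did not pass. A tailed share that was higher in SCI without overlap occurred in 15.9% of arms, 38 arms (8.15%) had an unadjusted p under 0.05, and 0 of 466 (0%) passed. Tails of A alone made up most of the difference, at 6.63%, 4.63% and 5.87% in SCI against 3.91%, 4.14% and 4.10% in control (exact permutation p = 0.1, limma adjusted p = 0.435), where 19.5% of arms were higher without overlap.

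The leading tailed form of miR-21a-5p is an A on the 23 nt form, and it was also read relative to the reads that end there. Whether the 3′ ends account for the tail difference was not tested. This form, the first of the tailed reads printed above, made up 5.48%, 3.58% and 4.92% of miR-21a-5p in SCI, against 2.47%, 3.07% and 3.00% in control. Relative to reads that end at 23 nt, tailed or not, the A-tailed share was 21.84%, 16.95% and 18.03% in SCI, against 13.14%, 16.99% and 16.76% in control. The groups overlapped, with SCI 2 just below control 2 (exact permutation p = 0.2). The difference of the means was 3.31 percentage points with control 1 and 2.06 without it.

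miR-146b-5p was tailed in 12.9%, 13.9% and 12.6% of reads in SCI, against 12.5%, 12.5% and 11.7% in control, higher without overlap and with a log2 difference of 0.12 (limma adjusted p = 0.665). For miR-155-5p the tailed share was 17.95%, 21.80% and 20.04% in SCI, against 25.99%, 19.82% and 20.05% in control, and control 1 was the highest. Its log2 difference was -0.17 (limma adjusted p = 0.711), or -0.0082 without control 1, and it rests on 474 tailed reads in all.

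**Figure D5:**
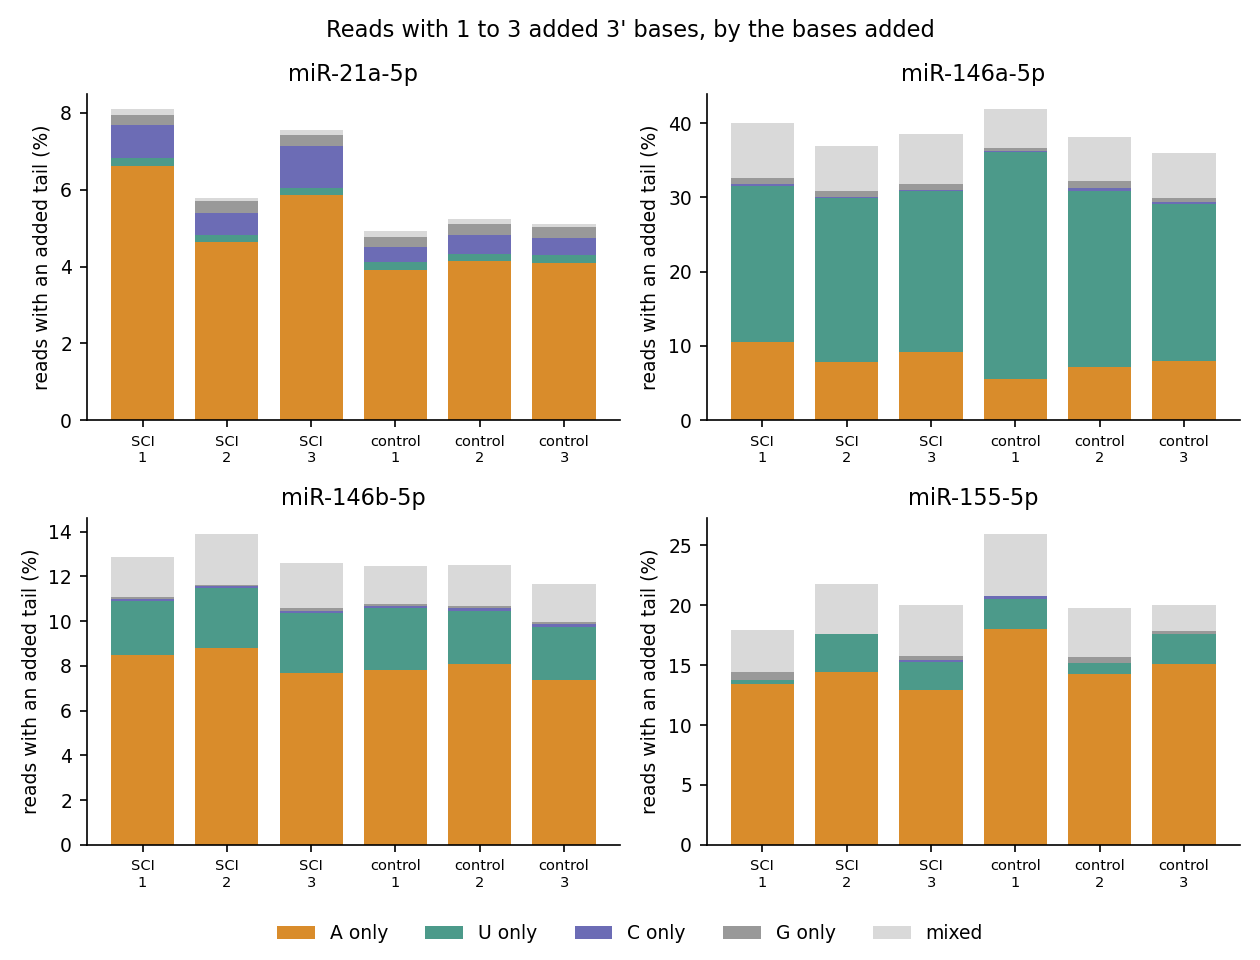
Share of reads with 1 to 3 added 3′ bases (%), stacked by the bases added, in each library for the 4 main strands, SCI libraries left of control libraries. U marks the T of the deposited reads, and the axes differ between panels. A tails dominate in miR-21a-5p, where the SCI bars reach 5.80% to 8.10%, and U tails dominate in miR-146a-5p.

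Other miRNAs named for NF-κB signalling, Toll-like receptor signalling or macrophage activation were read beside the 4 hairpins as a list of 28 arms, of which 27 were tested and miR-511-5p had too few reads. In edgeR 0 of the 27 passed, and 4 had an unadjusted p under 0.05, beside 97 of all 690 arms tested (14.1%). DESeq2 passed 1 of them, miR-187-3p, and limma-voom passed 0. The list split into 11 arms higher and 16 lower in SCI with a median log2 fold change of -0.11, beside -0.023 over all arms. Groups did not overlap for 9 of the 27, of which 2 were higher and 7 lower. Over all arms tested, 20.3% did not overlap in either direction and 11.2% were lower without overlap. miR-187-3p, which interleukin-10 induces in human monocytes, averaged 47.3 ± 4.70 CPM in SCI and 30.5 ± 2.16 CPM in control (log2 fold change 0.63 ± 0.16, adjusted p = 0.249). The other 5 arms with the smallest unadjusted p were lower in SCI on average. miR-132-3p, an activity-regulated miRNA of neurons that is also induced by Toll-like receptors, averaged 18014 ± 2495 CPM in SCI and 24440 ± 1324 CPM in control (-0.44 ± 0.13, adjusted p = 0.256). miR-9-5p, which targets Nfkb1 in human monocytes and is abundant in neural cells, averaged 63415 CPM in SCI and 80166 CPM in control (-0.34 ± 0.10). let-7i-5p, which targets Tlr4 in human cells, had a log2 fold change of -0.35, miR-145a-5p, a miRNA of smooth muscle and pericytes, of -0.28, and miR-221-3p of -0.26. The adjusted p of these 5 lay between 0.256 and 0.380.

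Markers of the cell types in which these miRNAs act were read in the same libraries. All 6 leukocyte and microglial markers were found and none was at 0, and their summed level was 3280 to 4699 CPM in SCI and 2654 to 3786 CPM in control. The groups overlapped. miR-342-3p, the most abundant of the 6 in every library, had 2123, 3352 and 2813 CPM in SCI, against 1140, 1482 and 2170 CPM in control (log2 fold change 0.79, edgeR adjusted p = 0.256). The other 5 markers summed to 1157, 1347 and 1175 CPM in SCI, against 1514, 1374 and 1616 CPM in control, lower in SCI without overlap. miR-150-5p made up most of this sum, at 930 to 1058 CPM in SCI and 1061 to 1336 CPM in control. miR-511-3p ran the other way, at 2.75, 2.89 and 3.46 CPM in SCI against 2.71, 1.99 and 2.67 CPM in control. Among single arms, 11.2% of all those tested were lower in SCI without overlap. miR-223-3p, the defining marker of neutrophils and monocytes, was at 16.7 to 18.5 CPM in SCI and 18.3 to 24.4 CPM in control. miR-142a-3p, which is restricted to blood cells and microglia, had 105, 133 and 109 CPM in SCI, against 299, 81.1 and 131 CPM in control. Control 1 thus held the highest value of both miR-142a-3p and miR-146a-5p, but none of the remaining leukocyte and microglial markers was highest there. miR-142a-5p, from the same hairpin as miR-142a-3p, had 130 CPM in control 1 and 133 CPM in SCI 2, and miR-342-3p was lowest in control 1. The part of these cells in the level of miR-146a-5p was not tested. The summed levels of 4 neuronal markers were 155037 to 165395 CPM in SCI and 177189 to 196442 CPM in control. miR-128-3p and miR-9-5p made up most of that sum, and miR-124-3p ran the other way, at 14891, 17528 and 16243 CPM in SCI against 9674, 12503 and 16230 CPM in control (log2 fold change 0.34, edgeR adjusted p = 0.434). The sums of 4 mural and stromal markers were 3463 to 3804 CPM in SCI and 4646 to 5313 CPM in control. Most of that sum was miR-143-3p, at 2976 to 3244 CPM in SCI and 4013 to 4718 CPM in control. The log2 fold changes of miR-199a-3p and miR-214-3p were 0.0026 and 0.032. The sums of 3 oligodendrocyte markers were 5636 to 6417 CPM in SCI and 6441 to 8761 CPM in control, and each of these markers on its own overlapped between the groups. The neuronal, mural and stromal, and oligodendrocyte sums were lower in SCI without overlap, a pattern that 11.2% of single arms showed. Their part, like that of the 5 leukocyte and microglial markers, in the values of the 4 hairpins was not tested. Erythrocyte, endothelial and choroid plexus sums overlapped between the groups. Most of the choroid plexus and epithelial sum was miR-204-5p, which overlapped, as did miR-211-5p and miR-200b-3p. In that list miR-200a-3p, miR-429-3p and miR-141-3p were lower in SCI without overlap (log2 fold changes -0.89, -0.64 and -0.78). miR-449a-5p was higher without overlap (0.57). The edgeR adjusted p of these separating arms lay between 0.256 and 0.279, and 20.3% of all arms tested did not overlap.

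The arms most like each main strand were taken by Pearson correlation of log2 CPM over the 6 libraries, among 236 or 237 other arms with a mean of at least 100 CPM. These are descriptions over 6 points that share library and depth. miR-21a-5p was most like miR-497a-5p (r = 0.97), miR-376a-3p (0.96) and miR-384-5p (0.95). miR-146a-5p was most like miR-181d-5p (0.94), miR-142a-3p (0.94) and miR-181c-5p (0.93). miR-146b-5p was most like miR-17-5p (0.96) and miR-20a-5p (0.95), which come from 1 primary transcript, and then miR-497a-5p (0.88). miR-155-5p was most like miR-139-5p (0.96), miR-485-5p (0.94) and miR-15b-5p (0.93). Control 1 held the highest level of all 3 arms most like miR-21a-5p, miR-146a-5p and miR-146b-5p, and the lowest level of the 3 most like miR-155-5p. Neither member of the seed-sharing pair was among the 3 arms most like the other.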

How the data were processed

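Small RNA of sensorimotor cortex was sequenced in 3 SCI and 3 control libraries, grouped by the treatment in the labels; per the labels' protocols, RNA was extracted with the mirVana kit and ligated with HD adapters. For each library the authors deposited a table of distinct reads of 17 to 34 nt with raw counts, per the file headers. The submitters' processing notes name GRCm38 as the build. Which trimmer, aligner and read filters the authors used is not given in the sources used here. Reads have no molecular identifiers, so 95% Wilson intervals and floors of 3 counts cover counting error only.

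Reads were matched here to GENCODE M21 hairpins, arms sharing at least 50% of reads were merged, and reads left in several arms (0.100% to 0.153% of reads per library) were dropped. Levels were tested with edgeR 4.0.16 (R 4.3.3; quasi-likelihood, TMM scaling, filterByExpr at min.count 10). Standard errors were derived as the fold change over the square root of F. Arm ratios (mean of at least 10 reads in both arms) and shares of starts, ends and tails (mean of at least 100 reads) were tested with limma 3.58.1 on log2 odds with a pseudocount of 0.5. The p-values of edgeR, DESeq2 and limma were Benjamini-Hochberg adjusted over the whole table and called under 0.05. Single shares were compared by exact permutation over libraries and adjusted over the 8 quantities tested. The paired comparison of the tailed shares was not among the planned tests, and its permutation p was not adjusted. DESeq2 1.42.0, limma-voom, other scalings, filters and read choices, and leaving out each library, were alternatives. The mean 3′ end, the A-only tail and the single shares were added after seeing the data. The code was tested on simulated data. Python 3.11.15, pandas 2.3.3, numpy 2.4.6, scipy 1.17.1 and matplotlib 3.10.9 were used.

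The 4 hairpins, the lists and the rule for named miRNAs were chosen with earlier results of these data known. The rule names the 8 arms, the 6 arms of the inflammation list with the smallest unadjusted p, and the 3 arms most like each main strand. Cell type markers outside that rule were named for their role. The labels give no batch, and the libraries are separate samples per the labels, so p-values measure only the spread between these samples.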

Additional observations from a re-analysis of the deposited data

How the results depend on the processing

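The count of arms past the edgeR threshold, 0, became 12 with the DESeq2 test and 30 with no filter on low counts, and ran from 0 to 7 when each library was left out (7 without SCI 2, 2 without SCI 1). No arm of the 4 hairpins was among these calls. The log2 level difference of miR-21a-5p (-0.025) turned to 0.10 with total count scaling, which moved the median of all arms by 0.115. It turned to 0.025 with all library reads as the total, 0.0038 with upper quartile scaling, 0.0047 with a mean of at least 100 counts and 0.0019 with tailed reads, and ran from -0.13 to 0.13 when each library was left out. That range was -0.57 to 0.074 for miR-146a-5p, 0.042 to 0.26 for miR-146b-5p and 0.35 to 0.69 for miR-155-5p. Left out in the same way, single libraries also turned the sign of the log2 differences at the main 5′ start of miR-146a-5p (-0.0017 to 0.090), at the main 3′ end of miR-21a-5p (-0.15 to 0.020) and miR-146b-5p (-0.068 to 0.018), and in the tails of miR-146a-5p (-0.090 to 0.088). The mean 3′ end turned for miR-146b-5p (-0.054 to 0.058 nt) and miR-155-5p (-0.035 to 0.052 nt), and the sum of miR-146a-5p and miR-146b-5p ran from -171.6 to 272.3 CPM (SCI minus control). The cause of these changes was not tested. Arms past the limma threshold for the main 5′ start, 34, numbered 58 with a minimum mean of 1000 reads and 0 to 36 when each library was left out (0 without SCI 1, SCI 2, control 1 or control 2, 1 without SCI 3).

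With the replicate block, 0 arms passed in edgeR and 103 had an unadjusted p under 0.05, and the log2 level difference was -0.0092 for miR-21a-5p and 0.50 for miR-155-5p; no call on an arm of the 4 hairpins changed. Same-numbered libraries correlated at 0.22, -0.057 and -0.086 in their deviations from the group means. Libraries with different numbers correlated at -0.17 to 0.25. With so few libraries this check cannot decide whether the numbers pair the samples. The number of reads limits miR-146a-3p and miR-155-3p, which could not be tested, and the minor strands of miR-21a and miR-146b.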

Other observations

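Reads of 17 nt, which stand below the counted lengths, were also read for the 4 hairpins. Those of miR-21a numbered 4.79, 4.96 and 5.07 per 1000000 library reads in SCI, against 9.24, 6.05 and 7.39 in control, lower in SCI without overlap. How many other hairpins separate in this way was not counted. The 17 nt reads of miR-146a and miR-146b are nearly all the same reads, since the mature sequences share their first bases, and amounted to 5.81, 5.98 and 5.97 per 1000000 library reads for miR-146a in SCI, against 7.54, 4.16 and 5.96 in control. Reads of 27 to 34 nt were at 0 or 1 per library for each hairpin. Of the 48349 reads of 18 to 26 nt in the miR-146a hairpin, 1 overlapped neither mature arm by at least 15 nt, and in the other 3 hairpins there were 0 such reads.

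Tails of C alone on miR-21a-5p made up 0.870%, 0.575% and 1.08% of its reads in SCI, against 0.366%, 0.480% and 0.452% in control, higher in SCI without overlap. This kind of tail was chosen after its values were seen and was not tested, and its share over all arms was not counted. Tails of A alone were higher in SCI without overlap in 19.5% of arms. Tails of U alone were 0.190%, 0.194% and 0.186% of miR-21a-5p in SCI, against 0.228%, 0.188% and 0.200% in control, with groups that overlapped.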
